A study of Mus musculus with 15 samples.

Results

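NRL is the Maf-family basic leucine zipper transcription factor that commits newborn photoreceptors to the rod fate and then keeps rod genes on in the adult. The sites described here are the NRL peaks that were called in the mature retina and in none of the younger retinas. A peak of the deposited table belonged to this set when it overlapped a peak of the P28 list by 1 bp or more and no peak of the P2, P4 or P10 lists. The rule found 783 such P28-only peaks among 8996 peaks in all. The remaining P28 peaks, which overlapped an earlier list as well, numbered 2693, and 3767 peaks were called only at P10. The members were thus chosen by the presence of a call at P28 and its absence at the other ages. Those calls rest on signal of the same libraries or of other replicates of the same ages, which is not stated. The members' P28 values against the other ages are therefore given as a description, and no test of those differences is offered as evidence.

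The libraries came from C57BL/6J mouse retina at postnatal day 2 (P2), 4 (P4), 10 (P10) and 28 (P28). Retinal cells were probed with an anti-NRL antibody by CUT&RUN, in which a nuclease bound to the antibody cuts out the DNA beside the protein for sequencing. The labels name no genotype or treatment beyond the strain and the age, list no control-antibody library, and do not state if each replicate was its own animal. Of the 15 labelled libraries (3 for P2, 4 for every later age) the table of values holds 8, namely those numbered 3 and 4 for P2, for P4 and for P28, and those numbered 1 and 4 for P10. Each age mean below therefore has n = 2, and p-values measure only the spread between these libraries. Whole retina mixes many cell types, and more rods among the cells cannot be told apart from more binding in each rod.

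In the mouse, rods are born around birth, build their light-sensing outer segments in the following weeks and are mature at about a month. NRL acts at rod promoters and enhancers with the homeodomain factor CRX and the nuclear receptor NR2E3. Its known recognition element is the Maf element, whose core reads TGCTGA. Promoters of widely expressed genes carry sites of other factor families, such as ETS, SP and NFY.

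Reads inside the 8996 peaks ranged from 49430 to 227692 per library, with 98186 and 92360 in the P28 libraries. As a share of each library's scale these were 0.986 and 0.940% for the P2 libraries, 1.09 and 2.15% for P4, 3.08 and 2.84% for P10 and 1.52 and 1.51% for P28, so P4 replicate 4 stood apart from P4 replicate 3. The assay gives no RNA level with which to check the tissue label. Of the genes in the lists used here, 33 of 37 rod genes had a peak of any age within 50 kb (89.2%), beside 5982 of 21900 protein-coding genes (27.3%). The other lists gave 7 of 18 cone genes, 9 of 23 progenitor, 4 of 18 bipolar, 4 of 22 inner retina, 0 of 13 Müller glia and 0 of 18 microglia or vessel genes.

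The sequences under some of the peaks show what kind of DNA they cover. Promoter windows of RefSeq (GRCm38.p6, 300 bases each) overlapped 392 of the 558 P28-only peaks that lay within 1 kb of a start site, by 50 bases or more. Each stretch below is the part of the peak inside that window, up to 30 bases past the start, written 5′ to 3′ on the gene's strand, with matches to the 12 motifs searched in capitals. The first set holds promoters with high or large-excess P28 signal and from the gene groups described further on. In Inpp5e the capitals mark an NFY match and an SP match, in Odc1 and Mrps24 SP matches, in Abraxas2 and Tomm22 ETS matches, in Ift74 an NFY match, in Brca2 a CRE match, and in Mcm8 ETS, SP, NFY and E-box matches.
Inpp5e (chr2:26409208-26409387, minus strand): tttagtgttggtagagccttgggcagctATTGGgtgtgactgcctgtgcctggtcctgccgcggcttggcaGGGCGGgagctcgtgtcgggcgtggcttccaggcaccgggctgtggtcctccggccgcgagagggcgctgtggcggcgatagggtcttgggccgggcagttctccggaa
Odc1 (chr12:17544833-17544902, plus strand): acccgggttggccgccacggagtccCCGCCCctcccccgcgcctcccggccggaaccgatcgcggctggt
Abraxas2 (chr7:132859163-132859254, plus strand): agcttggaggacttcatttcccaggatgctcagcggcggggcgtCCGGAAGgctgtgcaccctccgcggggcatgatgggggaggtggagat
Tomm22 (chr15:79670750-79670879, plus strand): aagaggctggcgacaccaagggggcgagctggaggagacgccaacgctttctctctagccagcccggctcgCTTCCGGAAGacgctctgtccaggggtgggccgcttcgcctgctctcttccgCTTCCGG
Mrps24 (chr11:5707672-5707826, minus strand): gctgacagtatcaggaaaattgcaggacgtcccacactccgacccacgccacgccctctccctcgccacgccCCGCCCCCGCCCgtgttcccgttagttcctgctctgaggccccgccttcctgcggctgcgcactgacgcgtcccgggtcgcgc
Ift74 (chr4:94614362-94614520, plus strand): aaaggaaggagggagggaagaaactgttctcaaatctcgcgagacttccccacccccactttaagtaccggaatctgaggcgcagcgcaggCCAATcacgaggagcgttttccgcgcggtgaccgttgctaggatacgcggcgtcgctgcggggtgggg
Brca2 (chr5:150522447-150522650, plus strand): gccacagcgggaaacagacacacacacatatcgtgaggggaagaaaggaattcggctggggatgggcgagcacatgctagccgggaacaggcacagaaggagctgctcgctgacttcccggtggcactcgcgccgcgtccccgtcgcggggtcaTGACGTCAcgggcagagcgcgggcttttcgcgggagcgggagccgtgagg
Mcm8 (chr2:132815922-132816158, plus strand): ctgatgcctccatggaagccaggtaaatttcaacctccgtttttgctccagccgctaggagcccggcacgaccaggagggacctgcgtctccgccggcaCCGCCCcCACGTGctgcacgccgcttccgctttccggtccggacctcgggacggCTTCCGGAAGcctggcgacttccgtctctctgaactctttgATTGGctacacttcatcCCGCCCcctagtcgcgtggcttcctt

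The second set, chosen after values were seen, holds the P28-only promoters with the longer Maf core site TGCTGAC inside the printed stretch, and the promoter of the rod gene Abca4, which has a CRX match and no Maf core site in this stretch. In Snx10 the Maf core site overlaps an AP-1 match. Zfp709 also carries ETS and SP matches, and Polr2c ETS and NFY matches.
Gne (chr4:44072688-44072962, minus strand): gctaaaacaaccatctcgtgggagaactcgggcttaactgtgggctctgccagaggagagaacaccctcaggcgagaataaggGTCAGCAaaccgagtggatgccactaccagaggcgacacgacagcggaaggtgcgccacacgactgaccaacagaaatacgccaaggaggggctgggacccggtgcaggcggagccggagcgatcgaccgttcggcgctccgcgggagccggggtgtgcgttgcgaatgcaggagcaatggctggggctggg
Snx10 (chr6:51523962-51524113, plus strand): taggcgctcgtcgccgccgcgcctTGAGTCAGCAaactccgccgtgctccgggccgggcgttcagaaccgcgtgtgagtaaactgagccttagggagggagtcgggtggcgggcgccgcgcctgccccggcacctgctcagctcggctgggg
Zfp709 (chr8:71881892-71882097, plus strand): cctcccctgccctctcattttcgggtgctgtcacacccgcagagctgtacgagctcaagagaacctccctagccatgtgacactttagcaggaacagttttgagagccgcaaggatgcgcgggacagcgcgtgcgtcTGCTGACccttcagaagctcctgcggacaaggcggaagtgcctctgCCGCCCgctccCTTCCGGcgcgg
Polr2c (chr8:94857300-94857479, plus strand): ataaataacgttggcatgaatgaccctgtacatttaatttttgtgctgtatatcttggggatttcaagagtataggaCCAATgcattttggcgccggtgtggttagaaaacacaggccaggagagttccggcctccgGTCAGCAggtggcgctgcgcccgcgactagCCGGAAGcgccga
Rpp30 (chr19:36083609-36083745, plus strand): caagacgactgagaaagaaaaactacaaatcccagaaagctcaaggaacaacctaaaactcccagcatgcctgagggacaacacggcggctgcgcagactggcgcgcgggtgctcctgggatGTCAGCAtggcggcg
Abca4 (chr3:122044261-122044489, plus strand): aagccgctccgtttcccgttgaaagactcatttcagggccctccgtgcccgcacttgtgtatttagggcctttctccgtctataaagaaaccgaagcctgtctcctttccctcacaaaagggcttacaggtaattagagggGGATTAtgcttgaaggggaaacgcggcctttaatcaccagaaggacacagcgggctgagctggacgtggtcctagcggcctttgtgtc

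The P28-only peaks were weak members of the P28 list, and narrower than the other P28 peaks. The authors' own peak signal, a value per peak from their calling step, had a median of 9.75 (8.30 to 28.1) over these peaks and of 12.1 (8.35 to 105) over the other P28 peaks. Of the 783, 148 lay above the median of the whole P28 list, 11.35, and 0 were among its 100 strongest peaks. The authors' score reached its top value of 1000 in 136 of the P28-only peaks (17.4%) and in 56.1% of the other P28 peaks. Median width was 316 bp (97 to 1103) against 455 bp in the other P28 peaks. It was 322 bp over all peaks and 245 bp in the P10-only peaks.

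Signal over these peaks, as reads per kilobase of peak scaled to the library (RPKM), was low until P10 and higher in both P28 libraries. Median RPKM over the 783 peaks was 1.54 and 1.32 in the P2 libraries, 1.55 and 1.97 in those of P4, 2.05 and 2.45 in those of P10, and 4.53 and 4.61 in those of P28. The 2 P28 medians were thus close to each other and above all 6 earlier ones. The other P28 peaks had their highest medians at P10, 8.69 and 7.89, and 5.61 and 5.35 at P28. At P28 a P28-only peak held a median of 9 reads in each library, and at the younger ages 2 to 7, so single peaks are imprecise. Peaks without a read numbered 44 and 96 in the P2 libraries, 33 and 31 in those of P4, 33 and 13 in those of P10 and 0 in either P28 library. The set took 7.90 and 8.10% of the reads in peaks at P28, against 2.02 and 2.48% at P10 and 4.53 and 4.13% at P2. Across the 783 peaks the P28 libraries correlated at r = 0.54 on the log2(RPKM + 1) scale, and across the other P28 peaks at 0.84; these points share libraries, depth and peak width.

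**Figure D1:**
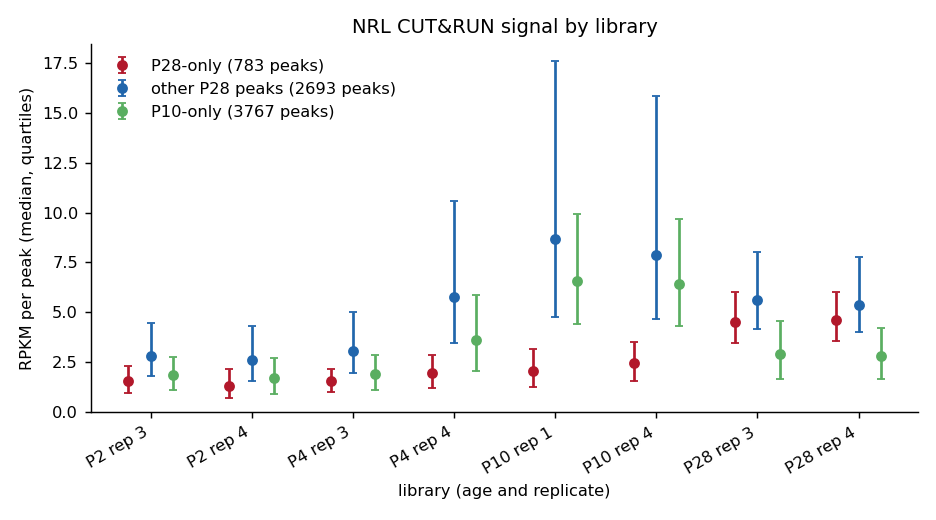
Median RPKM per peak (points) with its quartiles (bars) in each of the 8 libraries, for P28-only peaks, other P28 peaks and P10-only peaks. The P28-only medians stay between 1.32 and 2.45 until P10 and reach 4.53 and 4.61 at P28, while both other groups are highest at P10.

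The absence of an earlier call did not always mean a lower level. The P28 mean was the highest of the 4 ages in 742 of the 783 peaks (94.8%), against 22.7% of the other P28 peaks. P10 was highest in 34 P28-only peaks, P4 in 6 and P2 in 1. Both P28 libraries lay above all 6 others in 502 (64.1%), where 8.07% of all peaks did; the rule used this contrast, so nothing is read from the gap. Among the other 3 ages the highest mean was at P10 in 495, at P4 in 177 and at P2 in 111 peaks.

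On the log2(RPKM + 1) scale the median difference over the P28-only peaks was 0.77 for P28 against P10, where that of all peaks was -0.69. Against P4 it was 1.01 (all peaks 0.10) and against P2 1.20 (all peaks 0.57). With limma and Benjamini-Hochberg adjustment over all peaks, 108 of the 783 were called higher at P28 than at P10 (13.8%), beside 1.29% of all peaks. Against P4 140 were called higher (17.9%, all peaks 3.48%) and against P2 249 (31.8%, all peaks 9.64%). These sets overlap, with 333 members called higher against at least 1 age (42.5%, all peaks 11.1%). No member was called lower in these 3 comparisons (all peaks 20.7, 6.02 and 3.00%). Limma-voom on the reads and an unadjusted p under 0.05 also gave 0. The rule, which asked for a call at P28 and none earlier, pushes towards this, so nothing is read from it. When an earlier peak excluded a member only from 50% overlap, a wider set of 929 peaks, 108 were called higher and 2 lower against P10. Called higher against all 3 ages were 36 (4.60%, all peaks 0.40%), and against none 450 (57.5%, all peaks 88.9%).

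These counts rest on few reads and move with the setting. The 108 peaks called against P10 had a median of 4 reads at P10 over both libraries and a width of 232.5 bp, against 13 reads and 335 bp for the 675 not called, and 46 of them had 3 reads or fewer there. With a pseudocount of 0.1 in place of 1 the counts against P10, P4 and P2 were 2, 4 and 31. Without P10 replicate 1 or 4 the count against P10 was 22 or 39, and 54 or 47 without P28 replicate 3 or 4. Against P4 it was 59 or 61 when P4 replicate 3 or 4 was left out and 77 or 82 when P28 replicate 3 or 4 was. Against P2 it was 122 without P2 replicate 4 and 147 or 146 without P28 replicate 3 or 4. Centring each library on its median moved the median of all peaks from -0.69 to -0.09 for P28 against P10, and the counts were then 315, 99 and 50.

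**Figure D2:**
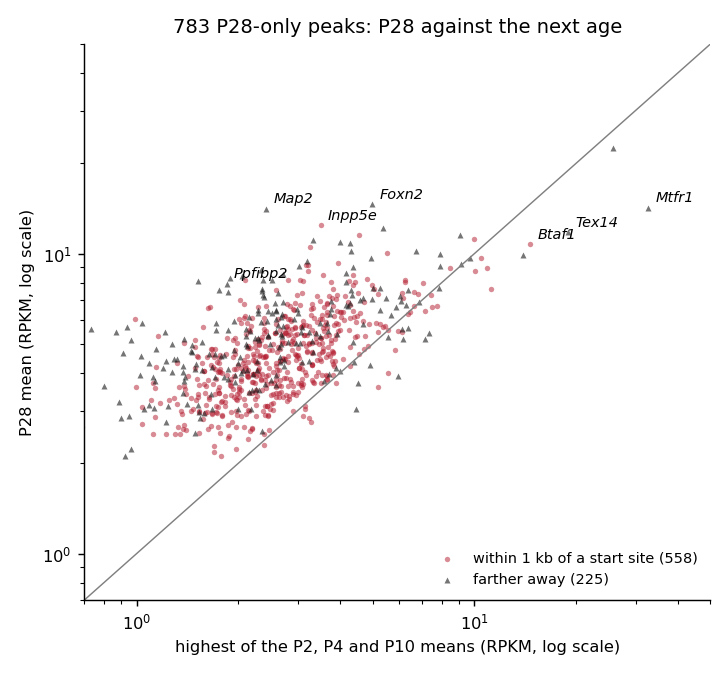
Mean P28 RPKM of each P28-only peak (vertical, log scale) against the highest of its P2, P4 and P10 means (horizontal, log scale), with promoter peaks as dots and all others as triangles; the line marks equal values. The peaks above the line number 742, and Mtfr1, Tex14 and Btaf1 lie below it.

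P10 against P4 does not involve P28, but the rule used both ages: it asked for no call at either, and a peak that had risen to P10 could be called there and so be left out. The values for this pair are therefore a description as well, and nothing is read from the members' share beside that of all peaks. The members' median difference was 0.23 where that of all peaks was 0.73, and after centring of the libraries it turned to -0.48 against 0.02. Called higher at P10 were 21 members (2.68%), beside 15.6% of all peaks, and called lower 0, beside 1.51%; at an unadjusted p under 0.05 limma had 6 lower, and limma-voom called 0. After centring 2 were called higher and 6 lower. Without P4 replicate 3 the calls were 2 higher and 0 lower, and without P4 replicate 4 they were 40 and 2. Without P10 replicate 1 they were 2 and 0, and without P10 replicate 4 they were 6 and 1. The count was 0 at a pseudocount of 0.1.

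Slc16a1, the gene of the monocarboxylate transporter MCT1 that carries lactate, headed the 21 when these were ordered by adjusted p. Its peak at chr3:104637871-104637977, upstream of the start site, read 0 and 0 RPKM in the P2 libraries, 0 and 1.33 in those of P4, 11.8 and 8.16 in those of P10 and 10.1 and 12.2 in those of P28. The P10 and P28 libraries overlapped, and all 4 lay above the younger libraries, which held 1 read in all. P10 exceeded P4 by 2.82 ± 0.48 (SE) on the log2(RPKM + 1) scale. Tex14, a gene of germ cell intercellular bridges, has an intronic peak that read 1.05 and 3.54 in the P4 libraries, 23.4 and 14.4 in those of P10 and 12.8 and 10.8 in those of P28, a P10 to P4 difference of 2.67 ± 0.54. A called peak of an earlier age lay 148 bp from this Tex14 peak. An intergenic peak nearest Akap1, which encodes an anchor of protein kinase A on mitochondria, had a P10 to P4 difference of 2.04 ± 0.51. Prph2, described with the rod genes, was also among the 21.

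The strongest peaks at P28 fell into those with a large excess over every other age and those without one. Foxn2, a forkhead transcription factor gene, had an intronic peak at chr17:88467812-88468072 with the highest authors' signal of the set, 28.1. It had 1.45 and 0 RPKM in the P2 libraries, 3.41 and 1.09 in those of P4, 4.23 and 5.74 in those of P10 and 16.0 and 13.2 in those of P28. Both P28 libraries were above all the others, with 48 reads at P28 against 19 at P10, and the difference from P10 was 1.39 ± 0.52 (SE, log2(RPKM + 1)). That difference was not called (limma adjusted p 0.056). The Inpp5e promoter, printed above, belongs to a phosphoinositide phosphatase of the primary cilium. It read 4.9 and 2.11 RPKM in the P2 libraries, 2.82 and 1.59 in those of P4, 2.63 and 4.16 in those of P10 and 10.3 and 14.6 in those of P28. The libraries of P28 did not overlap those of any other age, and the difference from P10 was 1.62 ± 0.51. Odc1 encodes ornithine decarboxylase, the first enzyme of polyamine synthesis. Its promoter read 2.74 and 2.76 in the P2 libraries, 2.76 and 2.07 in those of P4, 4.57 and 4.52 in those of P10 and 12.3 and 10.7 in those of P28, again without overlap. The Odc1 difference of P28 from P10 was not called (limma adjusted p 0.079).

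Map2, a gene of neuronal microtubules, shows the cost of few reads. Its intronic peak of 103 bp read 2.45 and 1.85 RPKM in the P2 libraries, 1.23 and 0 in those of P4, 0 and 4.85 in those of P10 and 6.02 and 22.3 in those of P28. The P28 libraries were both the highest, on 4 and 14 reads, and their mean was 14.1 ± 11.5 (SD). Glt28d2 and Ybx3, a Y-box nucleic acid binding protein gene, had similar P28 means of 12.2 ± 4.77 and 11.6 ± 4.51 (SD), with P10 means of 5.38 ± 0.884 and 9.05 ± 3.26.

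The largest excess of P28 over the next age among peaks with at least 20 reads at P28 was at Ppfibp2, which encodes a liprin, a scaffold protein. Its intronic peak read 1.69 and 1.71 RPKM in the P2 libraries, 1.14 and 2.56 in those of P4, 0.707 and 0.56 in those of P10 and 4.86 and 11 in those of P28. P10 held 2 reads in all, and the ratio of P28 to P10 was 12.6 with an exact 95% interval of 3.09 to 110. Tspan10, a tetraspanin gene, followed with a peak in its 3′ untranslated part at 0.271 and 0.82 RPKM in the P2 libraries, 1.64 and 2.46 in those of P4, 0.34 and 2.42 in those of P10 and 7.68 and 9.17 in those of P28. With 49 reads at P28 it was the best covered of this group, and every earlier library was at 2.46 or below. Itsn2, an endocytic scaffold gene, had 0 reads in both P2 libraries and 10.7 and 6.93 RPKM at P28, after 3.33 and 1.32 at P10. The Abraxas2 promoter, of a scaffold of the BRISC deubiquitinase complex, read 7.38 and 5.85 at P28 and no more than 2.5 in any earlier library. Itpr2, Tmem14a and Cxxc4 also belonged to the group, with P28 means of 8.16 ± 4.99, 5.69 ± 3.09 and 5.04 ± 0.113 (SD).

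Other P28-only peaks had as much signal at P10. Mtfr1, a regulator of mitochondrial fission, had an intronic peak at 17.1 and 48.4 RPKM at P10 and 13.2 and 15.2 at P28, with 1.97 and 27.7 at P4. The libraries of P10 and of P4 differed widely. After scaling to the libraries the ratio of P28 to P10 reads was 0.411 (exact 95% interval 0.243 to 0.671, counting error only). The difference of P28 from P10 was -0.98 ± 0.79 (SE, log2(RPKM + 1)) and was not called. Btaf1, a TBP-associated factor gene with a Maf core site in its promoter window, read 12.5 and 16.7 at P10 and 7.56 and 14 at P28. Ldha, Ino80 and Afg3l2 were also of this kind, with P10 means of 7.33 ± 0.911, 5.17 ± 2.76 and 5.84 ± 4.03 and P28 means of 5.43 ± 0.792, 3.59 ± 0.101 and 4.78 ± 0.457. Such peaks had no call in the P10 list although their P10 level was at or above that at P28. Some lay close to a called peak of an earlier age. The gap was 425 bp at Ldha, 490 bp at Ino80, 1591 bp at Mtfr1, 6669 bp at Btaf1 and 159146 bp at Afg3l2.

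**Figure D3:**
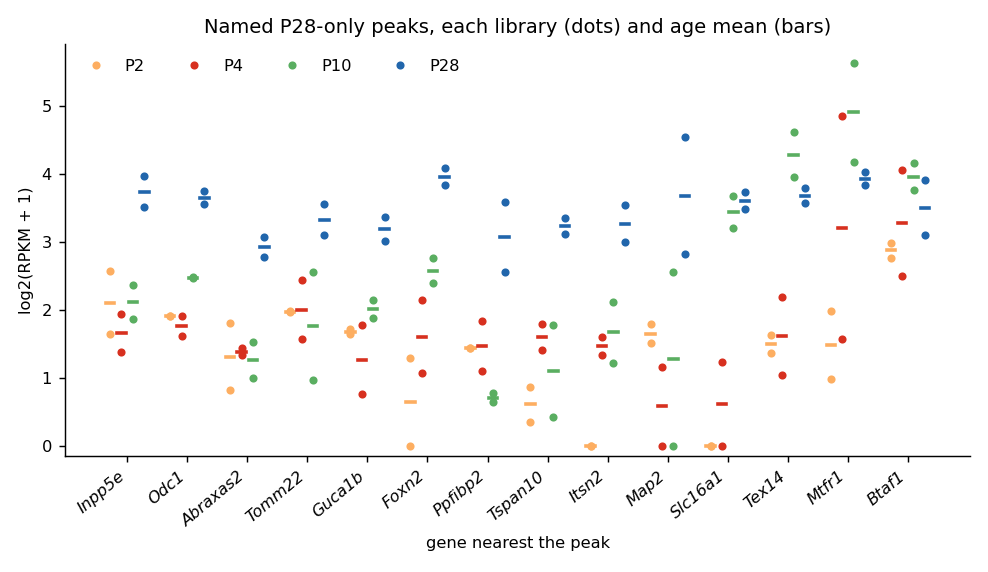
Values of 14 named P28-only peaks as log2(RPKM + 1), with a dot for each library and a bar for each age mean (2 libraries per age). From Inpp5e to Map2 both P28 dots are the highest, from Slc16a1 to Btaf1 at least 1 P10 dot reaches the P28 range.

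Among the rod genes the P28-only peaks were at Guca1b, Abca4 and Prph2. These were 3 of the 33 rod phototransduction and outer segment genes with a peak (9.09%), near the 11.6% over all protein-coding genes with a peak, and 3 of the 24 with a peak at P28 (12.5%, all genes 23.8%). All 3 also had an earlier-age peak elsewhere within 50 kb. Guca1b encodes GCAP2, a calcium sensor that controls guanylate cyclase in photoreceptors, and its P28-only peak lay over the start site. That peak read 2.11 and 2.28 RPKM in the P2 libraries, 2.43 and 0.683 in those of P4, 3.39 and 2.69 in those of P10 and 9.26 and 7.05 in those of P28. With 43 reads at P28 and 18 at P10, the P28 libraries were above all others, and the nearest earlier-age peak was 2971 bp away. The difference of P28 from P10 was not called at Guca1b (limma adjusted p 0.076), nor at any other rod gene peak of the set. Abca4, whose product clears retinaldehyde from outer segment discs, had 2 P28-only peaks. The promoter peak printed above read 2.10 and 0 in the P2 libraries, 0 and 3.57 in those of P4, 3.28 and 2.60 in those of P10 and 5.81 and 5.46 in those of P28. The second, annotated to an intron, read 4.46 and 0.589 at P10 and 7.31 and 5.41 at P28. Prph2 encodes the protein of the disc rim, and its intergenic P28-only peak read 0 and 0.869 in the P2 libraries, 0 and 1.3 in those of P4, 3.6 and 5.13 in those of P10 and 5.66 and 4.49 in those of P28, with the ages P10 and P28 overlapping. Egflam, the gene of the photoreceptor synapse matrix protein pikachurin, was the single synapse gene of 16 and read 7.88 and 5.55 at P28 against 3.56 and 2.11 at P10. None of the 7 cone genes, 16 photoreceptor factor genes, 4 bipolar, 4 inner retina or 9 progenitor genes with a peak had a P28-only one. Of these genes 2, 9, 0, 1 and 1, in this order, had any P28 peak, so few could have had one.

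Within 50 kb of a start site the P28-only peaks were assigned to 696 protein-coding genes, 11.6% of the 5982 with any peak. Of the 696, 153 (22%) also had a peak of an earlier age, and 543 had none. The rule, which refuses an overlapping earlier peak, pushes towards this, and of the 2670 protein-coding genes with a P10-only peak 25.6% had a peak of another age. The gene lists that follow are given as a share of their genes with any peak, to be set beside 11.6%, and then of those with a P28 peak, to be set beside 23.8%; no list was tested.

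Genes of mitochondria gave 30 members of 163 with a peak (18.4%) and of 106 with a P28 peak (28.3%), 29 of the 30 peaks being promoter peaks. They included subunits of respiratory complexes (Ndufa9, Ndufa12, Ndufb7, Ndufb8, Cox6b1, Cox6c, Cox7c, Atp5a1), of the mitochondrial ribosome (Mrps24, Mrpl44, Mrpl3, Mrpl11) and of protein import (Tomm22, Tomm70a, Timm17a, Timm8b). Tomm22, a receptor subunit of the outer membrane translocase, read 2.91 and 2.93 RPKM in the P2 libraries, 1.95 and 4.39 in those of P4, 4.85 and 0.96 in those of P10 and 10.7 and 7.56 in those of P28. Mrps24 read 8.55 and 10 at P28 and no more than 4.83 before, so in both the P28 libraries stood apart. Tomm22 was called higher at P28 than at P10, and Mrps24 was not. Over the 30 peaks the median P28 to P10 difference was 0.74, beside 0.77 for all P28-only peaks. Both P28 libraries lay above all others in 23 of the 30, beside 64.1% of all P28-only peaks and 8.07% of all peaks. The rule used this contrast, so nothing is read from it.

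Cilium genes gave 6 of 44 (13.6%) and of 26 (23.1%), both near the shares over all genes: Inpp5e, Ift74, Ift52, Wdr35, Lca5 and Spata7. The intraflagellar transport genes Ift74 and Wdr35, whose products carry cargo along the axoneme, read 6.4 and 8.79 and 4.11 and 4.01 RPKM at P28. At P10 they read 1.95 and 5.67 and 1.61 and 1.53, so both were highest at P28, though neither was called against P10. Lca5, the gene of lebercilin in the photoreceptor connecting cilium, had an exonic peak at 3.21 and 6.36 at P28 and 1.63 and 2.26 at P10. Spata7, another connecting cilium gene, read 4.27 and 1.97 at P10 and 2.8 and 2.96 at P28, without a separation. The centrosome list gave 1 member of 35 (2.86%) and of 14 (7.14%), Cep192.

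DNA repair and replication genes gave 13 of 74 (17.6%) and of 43 (30.2%), none with an earlier-age peak. Brca2, a recombination mediator, read 4.04 and 2.62 RPKM in the P2 libraries, 0.582 and 4.59 in those of P4, 2.17 and 2.86 in those of P10 and 5.68 and 7.51 in those of P28. The P28 pair lay above the others, with 18 reads at P28, but the Brca2 difference from P10 was not called (limma adjusted p 0.13). Rfc3, a clamp loader subunit, read 6.69 and 7.07 at P28, where P4 replicate 4 already read 7.05. Mcm8, a helicase of recombination, and Rad21, the cohesin subunit, had P28 means of 5.43 ± 3.06 and 5.49 ± 1.66 (SD) and P10 means of 2.58 ± 0.823 and 2.75 ± 1.02.

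Zinc finger genes gave 30 of 192 (15.6%) and of 105 (28.6%), among them Zfp180 with 5.79 and 6.45 RPKM at P28 and 2.79 and 1.96 at P10, on 39 reads at P28. Zfp35 read 9.06 and 6.97 at P28 and at most 4.19 before. None of the 30 zinc finger gene peaks was called higher at P28 than at P10. Chromatin genes gave 8 of 86 (9.30%) and of 43 (18.6%), with 9 peaks. Brd7, a subunit of a SWI/SNF remodeller, read 0 and 0.793 in the P2 libraries, 0.529 and 1.78 in those of P4, 0.657 and 0.52 in those of P10 and 4.52 and 6.14 in those of P28. P10 held 2 reads in all, and the ratio of P28 to P10 was 9.14 with an exact 95% interval of 2.15 to 82.0. Ezh1, the Polycomb methyltransferase, read 0 and 3.63 at P10 and 4.51 and 6.36 at P28. The histone demethylase gene Kdm1a and the deacetylase gene Hdac2 read 5.52 and 2.43 and 3.24 and 2.74 at P28.

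Lists within a few points of the 11.6% were splicing and RNA helicases (13 of 104, 12.5%), trafficking (18 of 156, 11.5%) and the proteasome and ubiquitin (17 of 176, 9.66%). Of their genes with a P28 peak these were 21.3%, 20.5% and 18.3%. Called higher at P28 than at P10 were 0, 0 and 2 of their peaks. In the first, Ddx31 read 7.61 and 7.47 RPKM at P28 and 1.66 and 3.5 at P10. Among the trafficking genes all 18 peaks were promoter peaks: Cog2, of the Golgi tethering complex, read 9.22 and 7.8 at P28 and at most 5.63 before, while Rab7, the late endosome GTPase, read 7.91 and 7.77 at P28 and 4.03 and 5.92 at P10. Cops9, of the COP9 signalosome, had 8.28 and 5.15 at P28 and 2.97 and 3.14 at P10. Translation gave 3 of 46 (6.52%), the transcription machinery 5 of 78 (6.41%) and ribosomal proteins 2 of 58 (3.45%), Rpl15 and Rpl30. Of the genes with a P28 peak these were 10.0%, 12.2% and 5.71%. Polr2c, an RNA polymerase II subunit with the Maf core site shown above, read 3.17 and 5.44 at P28 and at most 1.91 earlier. It was not called against P10.

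Genes with several P28-only peaks numbered 13. Osbpl8, a gene of lipid transfer at membrane contacts, had 3, with P28 means of 4.23, 5.23 and 5.93 RPKM. The other 12 had 2 each, among them Abca4, Slc16a1, Mtfr1, Oxr1, Gnaz and Stxbp3. At Mtfr1 the 2 peaks differed: the promoter peak had means of 2.25 at P10 and 5.27 at P28, the intronic one 32.7 and 14.2. By RefSeq gene type, 743 of the 783 peaks (94.9%) were nearest a protein-coding gene, 34 a long non-coding RNA gene and 4 a microRNA gene. The microRNA genes were Mir3473c, Mir3962, Mir7655 and Mir7075, with P28 means of 5.82, 6.31, 5.36 and 3.83 RPKM.

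Position was not used by the rule. Of the P28-only peaks 558 lay within 1 kb of a start site, 71.3% (Wilson 95% interval 68.0 to 74.3), and 477 overlapped one (60.9%). The promoter share was 75.5% (73.8 to 77.0) in the other P28 peaks, 45.6% (44.0 to 47.2) in the P10-only peaks and 56.8% in all peaks. Introns held 93 P28-only peaks (11.9%, 9.80 to 14.3) against 31.6% of the P10-only peaks, intergenic DNA 94 (12%) and exons 33 (4.21%). With 1 list per age there is no replicate of a share, and the intervals cover counting over peaks only.

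**Figure D4:**
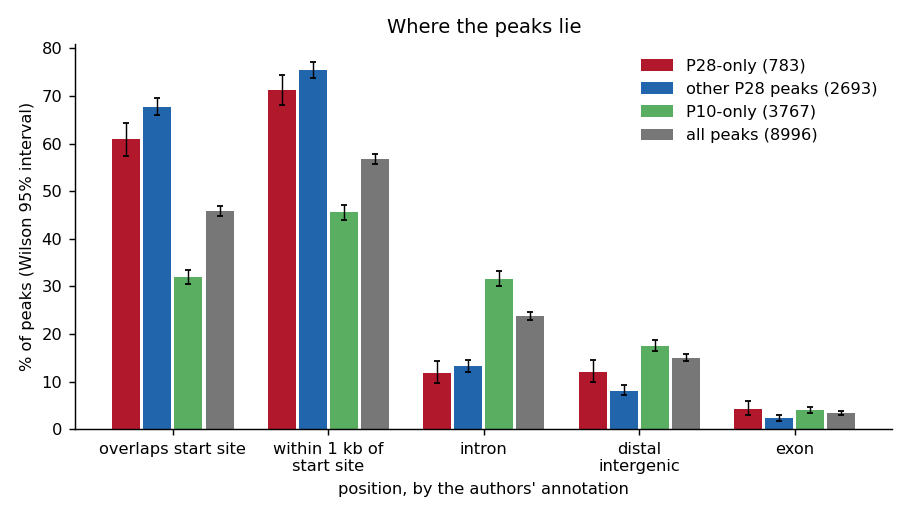
Share of peaks (%, with Wilson 95% intervals) by position in the authors' annotation, for P28-only, other P28, P10-only and all peaks. Within 1 kb of a start site the P28-only bar is at 71.3%, the other P28 bar at 75.5% and the P10-only bar at 45.6%.

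Promoter and distal members differed in level and width. Promoter members had a median P28 RPKM of 4.45 and a median width of 362.5 bp, the 225 others 5.23 and 233 bp. The median difference of P28 from P10 was 0.70 in promoter members and 1.06 in the others. Of the 108 calls against P10, 37 were among the 558 promoter members (6.63%) and 71 among the 225 others (31.6%). The others were the narrower group, and the part of width and read number in this gap was not tested. The 4 members farthest from a start site were nearest Mex3c, 7630403G23Rik, Arl4a and Ptbp2, and Arl4a read 7.26 and 6.4 RPKM at P28 with at most 3.9 before.

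Few P28-only peaks sat beside earlier NRL sites. The median gap to the nearest peak of P2, P4 or P10 was 61966 bp, against 36740 bp for the other P28 peaks and 31792 bp for the P10-only peaks, counted to another peak in each case. Within 10 kb of such a peak lay 88 of the 783 (11.2%), where 23.4% and 25.0% of those groups did. The rule itself removed any P28-only peak that touched an earlier one. At its edge, the members nearest an earlier-age peak were at Echdc1 (gap 97 bp), Hspe1 (103 bp) and Rnpc3 (109 bp), with P28 means of 3.31, 4.38 and 4.31 RPKM and P10 means of 1.41, 2.65 and 2.06. Just outside, overlapping an earlier peak by 104, 107 and 114 bp, were Siglec1, Hmox1 and Hmgn2, with P28 means of 12.1, 6.76 and 12.3 and P10 means of 14.0, 11.8 and 10.9.

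The promoter windows of the P28-only peaks held a Maf core site less often than the comparison sets, by counts that were not tested. TGCTGA, read on both strands, was in 11% of the 392 windows (Wilson 95% interval 8.25 to 14.4), against 18.6% (16.8 to 20.7) for the other P28 peaks, 17.7% (15.4 to 20.2) for the P10-only peaks and 19.5% of the 32851 RefSeq promoters searched, of the same length. The longer TGCTGAC, which contains TGCTGA, was in 7 windows (1.79%), against 5.35%, 4.12% and 4.67%. Those 7 belonged to Gne, Snx10, Zfp709, Polr2c, Spop, Rpp30 and Btaf1, and their levels varied. Gne, of sialic acid synthesis, read 4.07 and 5.08 RPKM at P28 and at most 2.73 before, while Snx10, a sorting nexin, read 3.1 and 4.91 at P28 and 2.36 and 8.73 at P10. A match describes the letters only, and a peak can cover other DNA than its window.

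ETS matches (CCGGAAG) were in 31.1% (26.7 to 35.9) of the P28-only windows, 23.5% (21.4 to 25.7) of the other P28 windows, 23.4% (20.9 to 26.1) of the P10-only windows and 8.86% of all promoters. NFY matches (CCAAT) were in 39.8% (35.1 to 44.7), 58.2% (55.7 to 60.7), 47.8% (44.7 to 50.9) and 37.4%. CRE matches (TGACGTC) were in 5.1% (3.33 to 7.75), 9.29% (7.92 to 10.9), 6.33% and 3.21%. The YY1 letters AAGATGG were in 12.8%, 9.89%, 7.84% and 6.34%, and the SP letters GGGCGG in 66.1%, 70.7%, 70.7% and 35.7%. CRX matches (TAATCC) were in 6.12%, 6.89%, 8.34% and 7.06%. AP-1 (TGANTCA), which can overlap the Maf site, was in 3.57%, 4.34%, 3.92% and 7.81%, so all 3 peak sets lay below the share over all promoters. NRF1 (GCATGCG) was in 9.95%, 8.09%, 10.4% and 3.58%, the RFX core site (GTTGCC) in 10.7%, 14.2%, 15.4% and 12.5%, and the E-box (CACGTG) in 9.69%, 10.9%, 12.9% and 7.15%. Median GC content was 62.0% in the P28-only windows, 61% in the other P28 windows and 52.7% in all promoters, and the observed over expected CpG ratio was 0.82, 0.83 and 0.38. Windows with an ETS match had a median P28 RPKM of 4.24 and a median P28 to P10 difference of 0.73, those without 4.52 and 0.68.

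**Figure D5:**
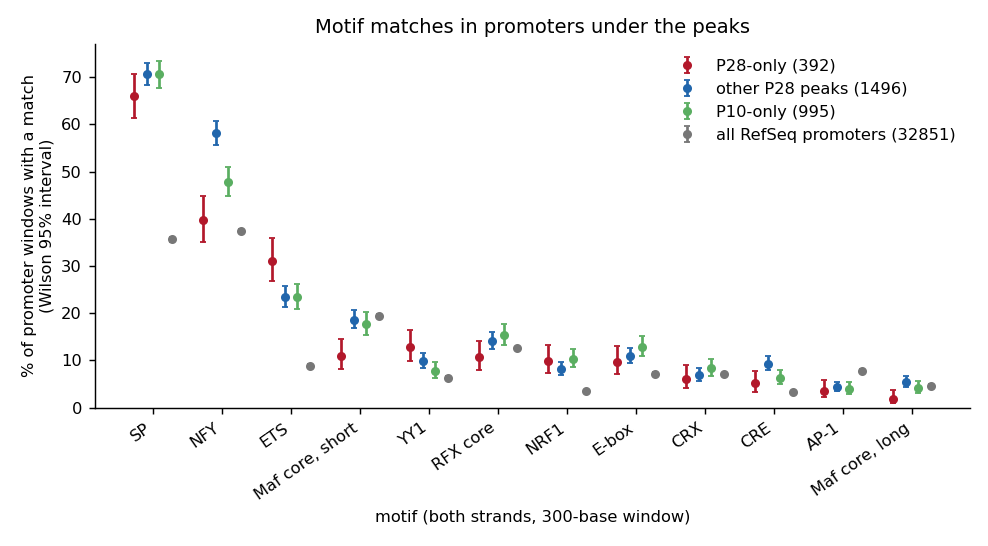
Share of promoter windows (%, with Wilson 95% intervals) holding each of the 12 motifs on either strand, for P28-only, other P28, P10-only and all RefSeq promoters. The P28-only points lie below the other P28 points for NFY and the short Maf core site and above them for ETS.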

How the data were processed

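The members, gene lists and motifs were chosen with earlier results of these data known. Bowtie2 (2.3.5.1), MACS2 (2.2.5), Trimmomatic (0.38), Picard (2.20.8), bedtools (2.29.0), SAMtools (1.9) and GRCm38.p6 are listed by the submitters' processing notes. The role of each, the replicates a peak list rests on and the use of the spike-in were not given in the sources used here. In the deposited lists, 1 per age, the signal and the score of a peak come from the authors' calling step, and place and start site distance are the authors' annotation.

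The deposited quantitation table holds RPKM, as the values show. After the first column, each column had been divided by widths taken 39 rows further up than in the one before it, as if 9035 widths were recycled. Whole reads came out for 100% of values (within 0.001), and RPKM was rebuilt with each peak's own width. For the top rows 39 unknown widths were solved as the smallest that made all columns whole, which is an assumption. How the authors set the library scale behind the RPKM is not known here. All 8 libraries entered 1 fit of log2(RPKM + 1) by limma (3.58.1; R 4.3.3) with trend, robust variance, age as factor and 4 residual degrees of freedom, with Benjamini-Hochberg adjustment over all 8996 peaks and calls at an adjusted p under 0.05. The fit was also run on simulated data, in which the changed peaks held more reads than most P28-only peaks do. That run therefore does not show how well the fit works on peaks with so few reads. The plan allowed for 15 libraries, of which 7 were not analysed here. An alternative is limma-voom on the recovered reads. Same-numbered replicates of P2, P4 and P28 did not deviate together, so no pairing was used.

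Named peaks are the 10 highest at P28, the 10 largest excesses and 6 largest deficits against the highest other age (at least 20 reads at P28), up to 4 per gene list, the 4 farthest from a start site and up to 3 calls in each direction for P10 against P4. Others were named after their values were seen. Some peaks that the rule names are not reported here. Motifs were searched in the RefSeq promoter windows of every chromosome but 18, which holds 25 of the 783 peaks, so the motif shares of every set leave that chromosome out. Ratios are of reads scaled to the libraries and have exact 95% intervals, which cover counting error only, as do all intervals here. Tables and figures were made with Matplotlib (3.10.9), pandas (2.3.3), NumPy (2.4.6) and SciPy (1.17.1) in Python (3.11.15).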

Additional observations from a re-analysis of the deposited data

How the results depend on the processing

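The counts of P28-only peaks called for P28 against P10, P4 and P2 and for P10 against P4 were 108, 140, 249 and 21. They were 2, 4, 31 and 0 at a pseudocount of 0.1, 40, 28, 71 and 2 with the values as deposited, and 19, 31, 51 and 4 in the upper part of the P28 list by score, a smaller set of peaks. Centring each library on its median gave 315, 99, 50 and 8 (2 higher and 6 lower), with 108, 98, 50 and 2 of the main calls still called higher. Leaving out 1 library at a time gave 22 to 150, 59 to 201, 122 to 271 and 2 to 42, where the 42 were 40 higher and 2 lower; an age left with 1 library was assumed to vary like the others. When an earlier peak excluded a member only from 50% overlap, a looser rule with 929 members in place of 783, the count for P10 against P4 was 32. Limma-voom on recovered reads gave 78, 108, 186 and 20, and a minimum of 10 reads removed no peak. No called value of a named peak reversed in the alternatives that were run on it.

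With the replicate number as a replicate block the counts were 26, 144, 253 and 3, on 2 residual degrees of freedom in place of 4. The differences between replicates 3 and 4 correlated at 0.085, 0.050 and 0.029 among P2, P4 and P28. The numbers were therefore not taken to pair the libraries. Replicate 1 was present only at P10, so with the block the comparisons with P10 rested on P10 replicate 4 alone at that age. The members' median differences of P28 from P4 and P2 stayed at 1.01 and 1.20. Those for P28 against P10 and P10 against P4 went from 0.77 to 0.70 and from 0.23 to 0.32. The cause of the lower counts in the comparisons with P10 was not tested.

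The promoter share of 71.3% was 75.1% within 3 kb and 79.7% in the upper part of the list by score. Among named peaks, 866 of the recomputed values kept their direction and side of the threshold, 83 lost a call, 59 gained one and 42 uncalled values changed sign. Most named peaks were not called for P28 against P10 in the main fit. The 866 therefore include many values that stayed uncalled, and they do not show that the calls were stable. The depth, a median of 9 reads per P28-only peak in each P28 library, limits every single-peak value.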
